A study of Mus musculus with 4 samples.

Results

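The transcription factor NRF2 (gene Nfe2l2), its inhibitor KEAP1 and 8 enzymes and transporters of detoxification were followed in the epididymal fat pad, a visceral adipose depot, of obese mice with different diet histories. The 10 genes, out of 24421 in the deposited matrices, were taken as a list of symbols: Nfe2l2, Keap1, Nqo1, Ptgr1, Cbr1, Cbr3, Akr1b8, Ephx1, Ugdh and Abcc1. The list was drawn up because Nqo1 and Ptgr1 were known to be much lower in one of the groups, so their values in this contrast are a description and no p is given for them. How many passed the threshold of the fit over all genes is stated beside the share of all genes and supports nothing. All animals were wild-type male C57BL/6J mice. In weight-cycling (WC1) mice, 2 weeks on standard diet, meant to bring weight loss, separated a period of 8 weeks on high-fat diet (HFD), begun at 8 weeks of age, from a last one of 6 weeks. Control (Ctrl) mice began HFD at 10 weeks of age and had it without a break for 14 weeks. Poly(A) RNA was sequenced in 2 libraries per group. The labels do not say whether a library is 1 mouse or a pool, so the errors rest only on differences between these libraries, which may be technical. The SE of a fold change was drawn towards a trend over all tested genes, so it is not the spread of that gene alone.

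In unstressed cells KEAP1 holds NRF2 in the cytoplasm and, with the ubiquitin ligase scaffold CUL3, marks it for destruction by the proteasome. Electrophiles and oxidants modify cysteines of KEAP1. NRF2 then accumulates, pairs with a small MAF protein in the nucleus and binds antioxidant response elements, which raises the transcription of genes for glutathione synthesis, quinone and carbonyl reduction, conjugation and export. NRF2 activity is thus set largely at the level of the protein, which RNA-seq does not measure. Of the 10 genes, Nqo1, Ptgr1, Cbr1, Cbr3 and Akr1b8 encode reductases. Ephx1 encodes a hydrolase, Ugdh a dehydrogenase and Abcc1 an efflux transporter, so the group is wider than reductive enzymes.

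The libraries held between 61465029 and 90965297 reads, recovered from the deposited CPM matrix, in which 3 reads corresponded to between 0.0345 and 0.0492 CPM. The least abundant of the 10 genes, Nqo1, was represented by 1115 and 1234 reads in the Ctrl libraries, and by 229 and 234 in those of WC1. All 10 genes passed the filter for testing, at least 0.5 CPM in at least 2 libraries, and each exceeded it in every library. The 10 adipocyte markers were all detected, and Adipoq, the adipokine adiponectin, ranged from 630 to 1944 CPM. Of 7 epididymis markers 5 were at 0 in every library, and the others summed to 3.77 CPM in WC1 1, 0.0318 CPM in WC1 2 and 0 CPM in Ctrl.

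The sharpest differences lay among the reductases. Akr1b8, Ptgr1, Cbr3 and Nqo1 had WC1 means of 12.5%, 17.6%, 25.9% and 24.5% of their Ctrl means. The transporter gene Abcc1 stood at 42.4%. Nfe2l2 and Keap1 differed far less, at 78.4% and 87.5%, and Cbr1, Ugdh and Ephx1 at 91.5%, 91.4% and 96.0%. The group therefore fell into 5 genes at or under a log2 fold change of -1, which 1.62% of the 14106 tested genes reached, and 5 genes between -0.35 and -0.06.

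**Figure D1:**
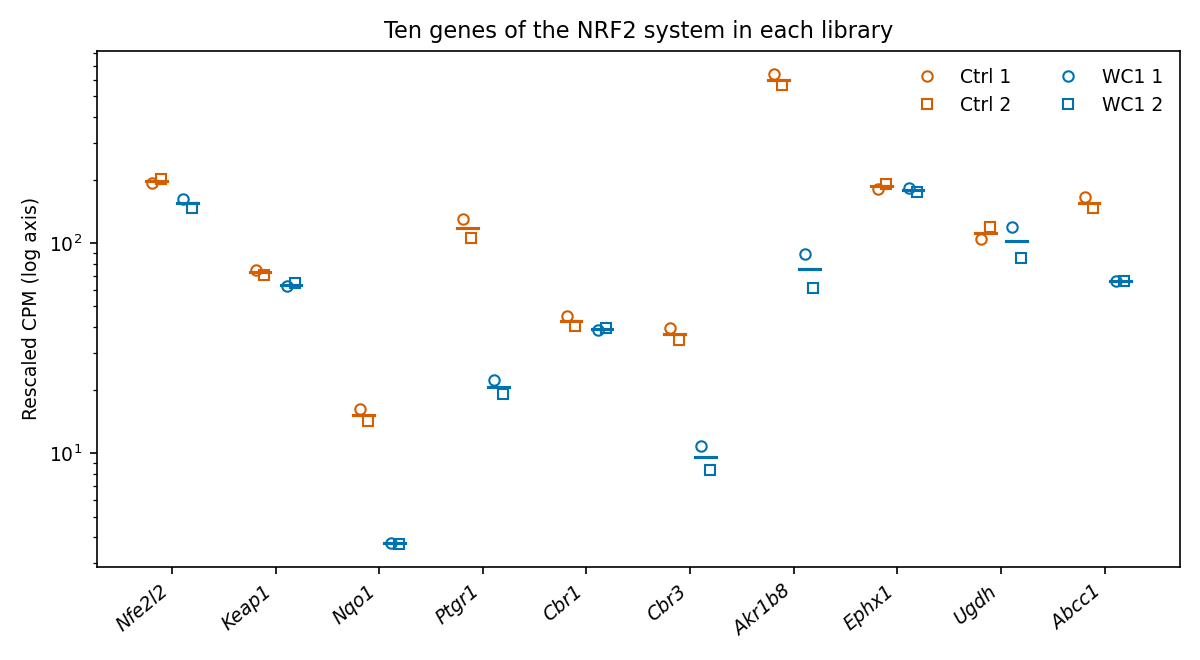
Rescaled CPM (log axis) of the 10 genes in each library, with Ctrl in orange and WC1 in blue, circles for library 1, squares for library 2 and a bar for the group mean. Akr1b8, Ptgr1, Cbr3, Nqo1 and Abcc1 stand well apart between the groups, and Ephx1 and Ugdh overlap.

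Nfe2l2 encodes NRF2 itself (mm10 chr2:75675513-75704641, minus strand). Its level was 193 and 203 CPM in Ctrl 1 and Ctrl 2, and 162 and 148 CPM in WC1 1 and WC1 2. Both WC1 libraries lay under both Ctrl libraries, with the lowest Ctrl value 1.19 times the highest WC1 value. On the log2(CPM + 1) scale the fold change was -0.35 ± 0.08 (SE, n = 2 per group). In TPM, reads corrected for transcript length, it was -0.21. Over all tested genes the median fold change was -0.02 in CPM and 0.10 in TPM, and relative to these medians Nfe2l2 was at -0.33 and -0.31.

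Keap1 encodes the inhibitor (chr9:21229730-21239361, minus strand). It was measured at 74.4 and 70.6 CPM in the Ctrl libraries, against 62.6 and 64.3 CPM in those of WC1. Its log2 fold change was -0.19 ± 0.07 (SE). The groups did not overlap, but the lowest Ctrl value was only 1.10 times the highest WC1 value. The ratio of Nfe2l2 to Keap1 within a library, taken in TPM, came to 3.60 and 3.88 in Ctrl, against 3.69 and 3.32 in WC1. These ratios overlapped between the groups.

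The promoter of Nfe2l2 holds the letters of an antioxidant response element core, TGACNNNGC, as does that of Ugdh. These letters were searched on either strand in RefSeq windows of 250 bases before to 50 bases after each gene start (GRCm38.p6, the sequence of mm10). They were in 12.4% of all 32851 windows, and in the windows of 2 of the 9 genes described here that had an entry (Abcc1 had none). They were also in 35.5% of the windows of further NRF2 targets (11 of 31 windows, from 11 of 23 genes), 13.0% of those of partners and regulators and 8.57% of those of related enzymes. The sites of Nfe2l2 and Ugdh are shown because they were the matches within the group, and those of Gclm, Prdx1 and Txnrd1 as examples of target genes that were lower in WC1. Gclm was one of the lower targets with the smallest limma p in this contrast, and Prdx1 and Txnrd1 were picked after their values were seen. The letters were also in the windows of Me1, which rose, and of G6pdx, Mgst1 and Tkfc, with log2 fold changes of 0.27, 0.21 and 0.17 that did not pass the limma test. The remaining targets with a match were Srxn1, Pgd and Pir, which fell (-2.05, -0.54 and -0.51), and Gsta3, at -0.58, which did not pass. The matches of Me1 and of these other genes are not shown. Each site shown is written 5′ to 3′ on the strand that holds the letters, with the match in capitals.
Nfe2l2, chr2:75704885-75704913, minus strand: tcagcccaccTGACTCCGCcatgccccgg
Ugdh, chr5:65435956-65435984, minus strand: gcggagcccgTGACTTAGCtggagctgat
Gclm, chr3:122245413-122245441, minus strand: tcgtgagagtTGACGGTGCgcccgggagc
Prdx1, chr4:116685456-116685484, minus strand: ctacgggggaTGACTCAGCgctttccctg
Txnrd1, chr10:82859104-82859132, minus strand: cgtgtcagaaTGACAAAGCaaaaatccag
The Nfe2l2 match begins 240 bases before its RefSeq gene start, and the Ugdh match shown begins 132 bases before its RefSeq start. Ugdh holds another match nearer its RefSeq start, on the opposite strand. The GENCODE span of Ugdh given below starts farther upstream than the RefSeq start and contains this other match. A match of these letters is a description of the sequence, not a measured binding site.

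Nqo1 encodes NAD(P)H quinone dehydrogenase 1, which reduces quinones in a single step of 2 electrons and is a widely used readout of NRF2 activity (chr8:107388225-107403206, minus strand). The Ctrl libraries held 16.3 and 14.2 CPM, those of WC1 3.75 and 3.72 CPM. The WC1 libraries were almost equal, and the lowest Ctrl value was 3.78 times the highest WC1 value. The log2 fold change was -1.78 ± 0.11 (SE). As Nqo1 was the least abundant of the 10 genes, the pseudocount of 1 mattered most for it. The fold change was -1.89 with a pseudocount of 0.5, -1.59 with a pseudocount of 2 and -2.01 in the count model of edgeR.

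Ptgr1 encodes prostaglandin reductase 1, which inactivates leukotriene B4 and reduces the double bond of lipid-derived alkenals and prostaglandin metabolites (chr4:58965439-58987119, minus strand). Its values were 130 and 106 CPM in Ctrl and 22.3 and 19.2 CPM in WC1. Every WC1 value was far under every Ctrl value, with a 4.77-fold gap between the nearest of them. The log2 fold change was -2.45 ± 0.13 (SE).

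Akr1b8 encodes an aldo-keto reductase of aldehydes (chr6:34354119-34368463, plus strand) and was the most abundant of the 10 genes in Ctrl. It reached 636 and 564 CPM in Ctrl, against 88.9 and 61.0 CPM in WC1. Its log2 fold change, -3.01 ± 0.19 (SE), was the lowest of the group, although the WC1 libraries themselves differed by 0.54 on the log2 scale.

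The searched letters were in none of the promoter windows of Nqo1, Ptgr1 and Akr1b8, which says only that this spelling was missing there. The bases from 250 to 51 before the RefSeq start of each are shown, on the strand of the gene, because these genes carry the sharpest differences by rule or by size.
Nqo1, chr8:107403256-107403455: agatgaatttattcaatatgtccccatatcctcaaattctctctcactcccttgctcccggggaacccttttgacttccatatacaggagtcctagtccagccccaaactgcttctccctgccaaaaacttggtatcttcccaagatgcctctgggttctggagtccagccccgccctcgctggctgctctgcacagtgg
Ptgr1, chr4:58987129-58987328: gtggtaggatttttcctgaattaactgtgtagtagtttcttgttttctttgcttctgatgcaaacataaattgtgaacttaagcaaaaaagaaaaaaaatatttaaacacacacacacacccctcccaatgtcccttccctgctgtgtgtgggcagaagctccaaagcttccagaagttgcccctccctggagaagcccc
Akr1b8, chr6:34353896-34354095: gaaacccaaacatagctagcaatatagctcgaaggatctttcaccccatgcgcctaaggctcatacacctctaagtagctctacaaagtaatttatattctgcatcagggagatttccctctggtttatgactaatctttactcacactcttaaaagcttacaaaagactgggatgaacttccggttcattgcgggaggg
The Nqo1 stretch had a GC content of 52.0%, and those of Ptgr1 and Akr1b8 had 42.5% each.

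Cbr1 and Cbr3 encode carbonyl reductases, which reduce ketones and quinones, and lie on the same strand of chromosome 16 (chr16:93605853-93610505 and chr16:93683215-93690990) with 72.7 kb between them. Cbr3 stood at 39.6 and 34.4 CPM in Ctrl, against 10.8 and 8.36 CPM in WC1, a log2 fold change of -1.85 ± 0.15 (SE). Cbr1 stood at 44.9 and 40.4 CPM in Ctrl, against 38.6 and 39.4 CPM in WC1, a log2 fold change of -0.12 ± 0.08 (SE). For Cbr1 the nearest libraries of the groups were only 1.03-fold apart. In TPM its fold change was 0.01 and the groups overlapped. The ratio of Cbr3 to Cbr1 in TPM was 0.818 and 0.790 in the Ctrl libraries and 0.260 and 0.196 in the WC1 libraries.

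Ephx1 encodes microsomal epoxide hydrolase (chr1:180976210-181020904, minus strand). Its levels were 181 and 192 CPM in Ctrl, against 182 and 176 CPM in WC1, so that the groups overlapped. The log2 fold change was -0.06 ± 0.07 (SE) in CPM and 0.08 in TPM, where both WC1 libraries were above both Ctrl libraries. Ugdh encodes UDP-glucose 6-dehydrogenase, which makes the UDP-glucuronate used in glucuronidation and in hyaluronan synthesis (chr5:65413221-65435949, minus strand). Its levels were 105 and 119 CPM in Ctrl, against 119 and 85.3 CPM in WC1. The log2 fold change was -0.15 ± 0.17 (SE). The WC1 libraries lay farther apart than the group means. The fold change was -0.38 without WC1 1 and 0.09 without WC1 2.

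Abcc1 encodes MRP1, an efflux pump for glutathione conjugates and leukotriene C4 (chr16:14361558-14475737, plus strand). The Ctrl libraries held 165 and 147 CPM, those of WC1 66.2 and 66.1 CPM. As for Nqo1, the WC1 libraries were nearly equal. The log2 fold change was -1.22 ± 0.08 (SE).

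**Figure D2:**
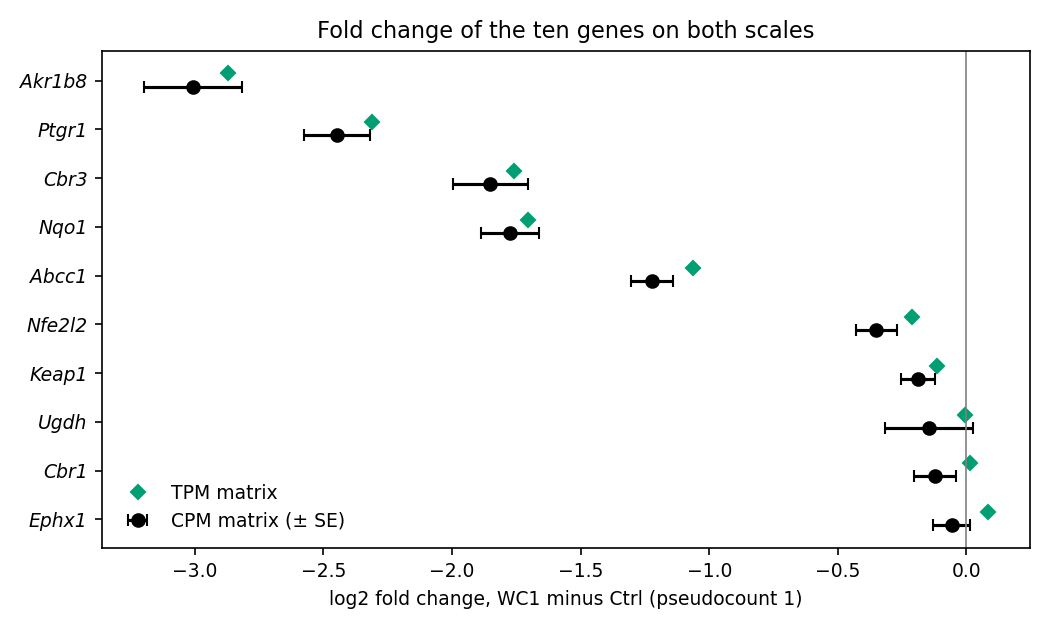
Log2 fold change, WC1 minus Ctrl, of each gene on the log2(CPM + 1) scale (black, with SE, 2 libraries per group) and on the log2(TPM + 1) scale (green). Akr1b8 is lowest at -3.01, and Cbr1 and Ephx1 lie on different sides of 0 on the 2 scales.

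Over the 10 genes, both WC1 libraries lay under both Ctrl libraries for 8 and above both for 0, beside 36.6% and 32.7% of all tested genes. By the limma fit over all genes 6 of the 10 had an adjusted p under 0.05, all lower in WC1 (Nfe2l2, Nqo1, Ptgr1, Cbr3, Akr1b8 and Abcc1), beside 7.71% of all tested genes lower, 10.2% higher and 17.9% in either direction. As the genes were picked from this contrast, nothing is read from these counts. Without Ctrl 1 the fit put 0 of the 10 under the threshold, and without Ctrl 2 it put 1 there (Ptgr1), while over all genes the calls dropped from 2531 to 6 and 12. The direction of Nqo1, Ptgr1, Cbr3, Akr1b8, Abcc1, Nfe2l2 and Keap1 was lower under all 13 alternative settings.

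Levels of different genes can be set side by side only per length, so they are given in TPM. In Ctrl the order ran from Akr1b8 at 884 ± 69.7 TPM (SD, n = 2) over Ephx1 at 215 ± 10.1, Nfe2l2 at 154 ± 6.63, Ptgr1 at 108 ± 14.3, Ugdh at 88.0 ± 8.33, Cbr1 at 75.7 ± 5.07, Cbr3 at 60.9 ± 5.61, Abcc1 at 50.4 ± 3.88 and Keap1 at 41.1 ± 0.473 to Nqo1 at 18.8 ± 1.72. No neighbours in this order had overlapping libraries. In WC1 Ephx1 led at 228 ± 0.498 TPM, followed by Nfe2l2 at 133 ± 5.62, Akr1b8 at 121 ± 29.3, Ugdh at 88.4 ± 18.8, Cbr1 at 76.4 ± 2.85 and Keap1 at 37.9 ± 1.27. Abcc1 at 23.6 ± 0.503, Ptgr1 at 20.9 ± 1.73, Cbr3 at 17.4 ± 2.80 and Nqo1 at 5.08 ± 0.0812 closed the order. There the libraries of Nfe2l2 and Akr1b8, of Akr1b8 and Ugdh, and of Ugdh and Cbr1 overlapped. Nqo1 was lowest in both groups.

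Several of the enzymes have close relatives in the genome, and these were set beside them. Akr1b10, 15.8 kb from Akr1b8, shares 85.4% of its aligned coding bases. It stood at 49.7 and 48.9 CPM in Ctrl, against 48.4 and 42.1 CPM in WC1 (log2 fold change -0.12 ± 0.09, adjusted p = 0.36, limma with Benjamini-Hochberg adjustment), and on the TPM scale its fold change was 0.01. The TPM ratio of Akr1b8 to Akr1b10 was 13.2 and 11.8 in Ctrl, against 1.89 and 1.49 in WC1. The longest run of bases the coding sequences share was 80 for this pair, and 50 for Cbr1 and Cbr3, which are 77.8% identical. No source used here says how reads that match both copies were counted, so the levels of these pairs are uncertain to that extent.

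Nqo2, the quinone reductase related to Nqo1, and Ptgr2, which reduces keto-prostaglandins, are more distant, with 61.1% and 59.7% identical coding bases and no shared run above 15 bases. Nqo2 was at 65.0 and 62.7 CPM in Ctrl and 57.6 and 49.9 CPM in WC1 (log2 fold change -0.25 ± 0.09, limma adjusted p = 0.12). Ptgr2 went the other way from Ptgr1: it rose from 93.6 and 89.8 CPM to 118 and 132 CPM (log2 fold change 0.44 ± 0.08, limma adjusted p = 0.031). The Ptgr1 to Ptgr2 ratio in TPM was 2.05 and 1.75 in Ctrl, against 0.280 and 0.217 in WC1, so that the more abundant gene of the pair changed between the groups. The Nqo1 to Nqo2 ratio was 0.630 and 0.567 in Ctrl, against 0.163 and 0.187 in WC1. Cbr4, a mitochondrial relative of the carbonyl reductases, was at 14.1 and 13.9 CPM in Ctrl and 17.3 and 18.7 CPM in WC1 (log2 fold change 0.34 ± 0.09, limma adjusted p = 0.056).

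**Figure D3:**
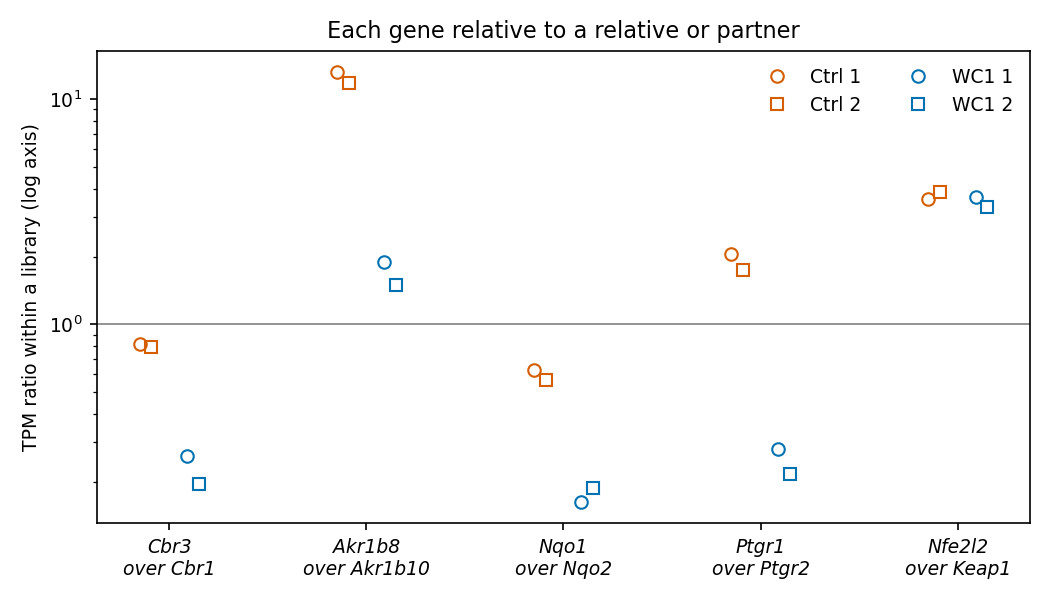
Ratio of TPM values within each library (log axis) of Cbr3 to Cbr1, Akr1b8 to Akr1b10, Nqo1 to Nqo2, Ptgr1 to Ptgr2 and Nfe2l2 to Keap1, with Ctrl in orange and WC1 in blue. The 4 ratios of enzymes to their relatives do not overlap between the groups, and the ratio of Nfe2l2 to Keap1 does.

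The other genes of the pathway were taken from lists that hold none of the 10 genes and that were written with earlier results of these data known. Among 16 partners and regulators of NRF2, 1 rose, 4 fell and 11 did not pass the test, with a median log2 fold change of 0.00 beside -0.02 over all genes. Thus 31.25% passed, beside 17.9% of all tested genes. Nfe2l1, which encodes the related factor NRF1, rose (0.50 ± 0.11, adjusted p = 0.045). Mafg, a small MAF partner, fell (-0.67 ± 0.08, adjusted p = 0.017), as did Sqstm1, the p62 adaptor that binds KEAP1 (-0.55 ± 0.10, adjusted p = 0.028). Rbx1, the RING subunit of the CUL3 ligase (-0.34 ± 0.06, adjusted p = 0.031), and Bach1, a repressor at the same DNA elements (-0.51 ± 0.12, adjusted p = 0.047), fell too. Of the 4 lower calls 2 remained in TPM, where Rbx1 and Bach1 had adjusted p values of 0.090 and 0.084, and 2 without the filter, where those of Sqstm1 and Bach1 were 0.051 and 0.076. Bach1 was also not called by edgeR (adjusted p = 0.051), nor Nfe2l1 without the filter (adjusted p = 0.074). The scaffold gene Cul3 (0.10 ± 0.06), the small MAF gene Mafk (-0.14 ± 0.09) and Nfe2l3 (-0.21 ± 0.13) had adjusted p values of 0.31, 0.34 and 0.31, and Mafk was at 0.00 on the TPM scale.

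Among 28 further NRF2 targets 2 rose, 16 fell and 10 did not pass the test, and the median log2 fold change was -0.66. Thus 64.3% passed, beside 17.9% of all tested genes. Of these targets 12 were at or under -1, beside 1.62% of all tested genes. The cystine carrier gene Slc7a11 stood at 9.58 and 9.27 CPM in Ctrl and 0.901 and 1.03 CPM in WC1 (-2.41 ± 0.11, adjusted p = 0.0040, limma). Its WC1 level is about that of the pseudocount of 1, and the log2 fold change was -3.26 in edgeR and -1.28 in TPM. The heme oxygenase gene Hmox1 stood at 937 and 965 CPM in Ctrl and 217 and 183 CPM in WC1 (-2.25 ± 0.11, adjusted p = 0.0044). Gclm, the modifier subunit of glutamate-cysteine ligase, fell by 1.93 ± 0.08 on the log2 scale, and Gsr, glutathione reductase, by 1.89 ± 0.08 (limma adjusted p = 0.0040 for each). Against these, Me1, malic enzyme 1 (0.69 ± 0.11, adjusted p = 0.023), and Aox1, aldehyde oxidase 1 (0.62 ± 0.07, adjusted p = 0.014), rose. Across the 3 lists 7 genes rose and 27 fell, and these counts became 0 and 0 without Ctrl 1 and 0 and 1 without Ctrl 2. The median log2 fold change of the further NRF2 targets was -0.59 without Ctrl 1 and -0.72 without Ctrl 2. With all libraries limma held 42 of the 76 tested list genes at an unadjusted p under 0.05, beside 37.8% of all tested genes. As the lists were written with earlier results of these data known, nothing is read from these counts.

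Of 36 related reductases, conjugation enzymes and transporters 32 could be tested: 4 rose, 7 fell and 21 did not pass the test, with a median log2 fold change of -0.09. Thus 34.4% passed, beside 17.9% of all tested genes. Akr1b7, Akr1c18, Aldh3a1 and Abcc2 were under the filter. Beside Ptgr2, the epoxide hydrolase genes Ephx3 (0.89 ± 0.15, limma adjusted p = 0.027) and Ephx2 (0.66 ± 0.14, adjusted p = 0.037) rose, as did the retinal dehydrogenase gene Aldh1a1 (0.52 ± 0.12, adjusted p = 0.048). Ephx3 was at or under 2.81 CPM in every library, and its log2 fold change was 1.46 in edgeR. Without the filter Ptgr2, Ephx2, Aldh1a1 and Akr1a1 had adjusted p values between 0.050 and 0.077, and edgeR gave Aldh1a1 an adjusted p of 0.052. The glucuronosyltransferase gene Ugt1a7c, whose enzyme uses the product of UGDH, fell from 93.0 and 79.8 CPM in Ctrl to 42.9 and 42.0 CPM in WC1 (adjusted p = 0.012). It shares exons with the other Ugt1a genes, so its reads are uncertain. Abcc4 (-0.76 ± 0.09, adjusted p = 0.016) and Abcc3 (-0.58 ± 0.09, adjusted p = 0.023), relatives of Abcc1, fell, and so did the aldehyde reductase gene Akr1a1 (-0.87 ± 0.14, adjusted p = 0.024).

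**Figure D4:**
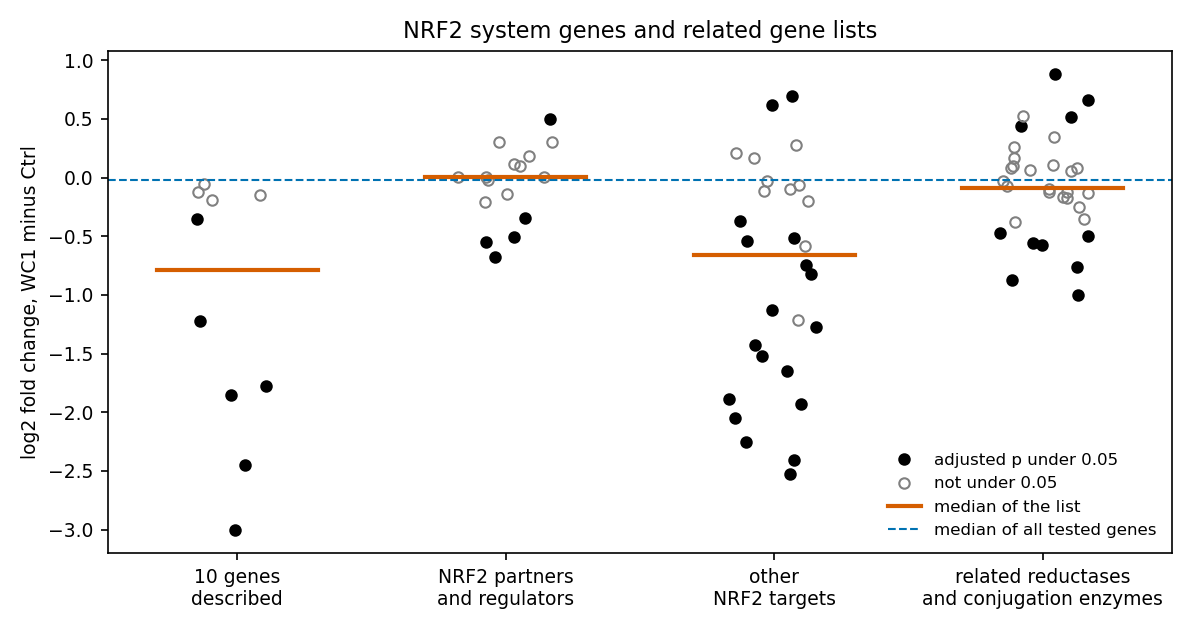
Log2 fold change, WC1 minus Ctrl, of the 10 genes described and of each tested gene of the 3 lists, filled where the limma adjusted p is under 0.05, with the median of each list in orange and that of all tested genes as a dashed blue line at -0.02. The further NRF2 targets have a median of -0.66, and the partners and the related enzymes lie around 0.

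The genes with the most similar profile over the 4 libraries were found by the Euclidean distance of centred log2(CPM + 1) values. For Nqo1 they were Pdlim4 (distance 0.036), Il1f9 (0.046) and Mrgprx2 (0.11). Il1f9, the cytokine interleukin-36 gamma, was at 2.71 and 2.11 CPM in Ctrl and was at 0 in both WC1 libraries, where 3 reads would be at most 0.0492 CPM. For Ptgr1 they were Panx1, a channel protein (0.10), Mmp3, a matrix metalloproteinase (0.12), and the peroxiredoxin gene Prdx1 (0.13). With 4 libraries in 2 groups such likeness describes mainly the difference between the groups.

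In bulk tissue, fewer cells of a type and less RNA per cell cannot be told apart, so marker genes are given beside these results. Of all tested genes 10.2% rose and 7.71% fell by limma. Of 12 macrophage markers 6 fell with a median log2 fold change of -0.66, and DESeq2 called 9 lower and 1 higher. The one with a positive fold change was Cd163, a scavenger receptor of resident macrophages, at 23.6 and 26.3 CPM in Ctrl, against 29.5 and 35.4 CPM in WC1 (log2 fold change 0.36 ± 0.12, limma adjusted p = 0.091). The macrophage list's summed level was 11952 and 10897 CPM in Ctrl and 6995 and 4917 CPM in WC1, a 1.92-fold ratio of the means. Lyz2, with the largest fall of the list, gave 6190 and 5352 CPM of this in Ctrl and 2875 and 2048 CPM in WC1. Of 7 mast cell markers 6 fell (median -3.14), with sums of 556 and 621 CPM in Ctrl and 84.9 and 68.2 CPM in WC1, a 7.68-fold ratio. The exception was the receptor gene Kit, at 20.1 and 24.9 CPM in Ctrl and 14.6 and 19.5 CPM in WC1 (log2 fold change -0.39 ± 0.18, limma adjusted p = 0.18). In the same comparison the Ctrl to WC1 ratio of means was 8.01 for Akr1b8, 5.68 for Ptgr1, 4.08 for Nqo1, 3.86 for Cbr3 and 2.36 for Abcc1. Within WC1 the ratio of library 1 to library 2 was 1.42 for the macrophage sum, 1.24 for the mast cell sum and 1.29 for the fibroblast sum, against 0.780 for the adipocyte, 0.778 for the endothelial, 0.665 for the T and NK cell, 0.376 for the mesothelial and 0.278 for the B cell sum. In the same libraries the levels were 88.9 and 61.0 CPM for Akr1b8, 10.8 and 8.36 CPM for Cbr3, 22.3 and 19.2 CPM for Ptgr1, 3.75 and 3.72 CPM for Nqo1 and 66.2 and 66.1 CPM for Abcc1.

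Of 10 adipocyte markers 7 rose (median 0.99, sums of 10319 and 11612 CPM in Ctrl and 18468 and 23679 CPM in WC1), and of 8 endothelial markers 7 rose (median 1.13). Of 8 fibroblast markers 3 fell (median -0.39), and of 4 tested B cell markers 1 rose (median 1.35), while DESeq2 called 3 higher. The B cell sum was 4.47 and 2.59 CPM in Ctrl, against 7.47 and 26.9 CPM in WC1, so that WC1 2 stood apart. Of 2 tested neutrophil markers S100a8 rose (median 0.51), while Csf3r had a log2 fold change of -0.24 that did not pass, and S100a9, Cxcr2 and Retnlg, under the filter at no more than 0.658 CPM, were lower in both WC1 libraries. Of 2 tested skeletal muscle markers Acta1 rose, and Mylpf did not pass (log2 fold change 0.03). Of 8 mesothelial, 8 T and NK cell and 3 tested erythroid markers 0 passed the limma test. At an unadjusted p under 0.05 the limma counts were 0, 1 and 1, edgeR called 0 of each and DESeq2 called 0, 0 and 1. The mesothelial sum was 128 and 95.8 CPM in Ctrl, against 65.6 and 175 CPM in WC1, so that the WC1 libraries lay on either side of Ctrl. The erythroid sum was 26.9 and 150 CPM in Ctrl, against 216 and 209 CPM in WC1. In Ctrl 1 and Ctrl 2 the globin gene Hbb-bs had 1 and 12784 reads, and Hbb-bt had 1521 and 0. The number of marker genes passing the limma test changed widely with the library left out. The part of these shifts in cell type markers in the values of Nqo1, Ptgr1, Akr1b8, Cbr3 and Abcc1 was not tested.

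**Figure D5:**
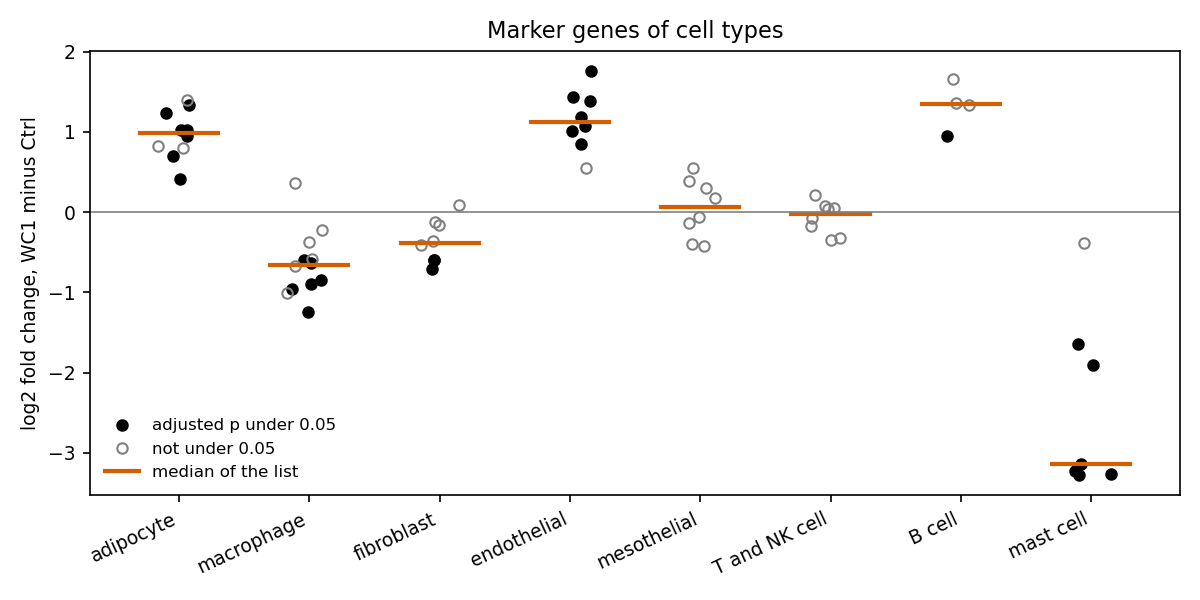
Log2 fold change, WC1 minus Ctrl, of marker genes of cell types with at least 4 tested markers, filled where the limma adjusted p is under 0.05, with the median of each list in orange. Mast cell markers have a median of -3.14, macrophage markers of -0.66, adipocyte markers of 0.99 and endothelial markers of 1.13.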

How the data were processed

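Poly(A) RNA of epididymal adipose tissue was sequenced from directional libraries, 2 labelled Ctrl and 2 labelled WC1. The submitters' processing notes name fastp, HISAT2 and StringTie and the build mm10. No source used here gives versions, the read counter or the annotation. The authors deposited a signal per gene, called CPM by them, in which every value is a whole multiple of 1 read to within 0.01 read, but whose columns sum to between 97.6% and 104.8% of what plain CPM would sum to. The authors also deposited TPM, corrected for transcript length.

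Testing was limited to the 14106 of 24421 genes that reached 0.5 CPM in 2 or more libraries. WC1 was compared with Ctrl on log2(CPM + 1) by limma 3.58.1 in R 4.3.3 (variance trend, two-sided, Benjamini-Hochberg threshold 0.05), after the CPM minimum in the study's methods. The pseudocount shrinks the fold changes of low genes. An exact permutation test cannot go below p = 0.333 here, from 3 splits into pairs. Alternatives were a pseudocount of 0.5 or 2, no filter, a mean of at least 5 CPM, TPM, median-of-ratios scaling, edgeR 4.0.16 and DESeq2 1.42.0 on recovered reads, a replicate block, and each library left out. Scripts were tested on simulated data with 200 changed genes among 14106. There limma recovered 167 with 21 false calls, edgeR 170 with 26 and DESeq2 175 with 47. For each tool the false share of calls thus exceeded the threshold of 0.05.

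The members and lists were chosen with earlier results of these data known. Named genes were the 10 genes; of each pathway list the 4 higher and 4 lower with the smallest p, plus up to 3 tied to one of the 10 genes; the 3 nearest profiles of Nqo1 and Ptgr1; and marker genes where a list is described. Positions are from GENCODE M21 (mm10), promoters from RefSeq (GRCm38.p6). With 2 libraries per group an SD rests on a single difference. Floors cover counting error only.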

Additional observations from a re-analysis of the deposited data

How the results depend on the processing

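The log2 fold changes of Nqo1, Ptgr1, Cbr3, Akr1b8 and Abcc1 stayed at or under -1.06 in all 13 alternatives. The number of the 10 genes called lower, from which nothing is read, was 5 without the low-value filter, in TPM and in edgeR, where Nfe2l2 was not called, and between 0 and 7 with a library left out. Over all genes, leaving a library out gave between 2 and 2424 higher and between 4 and 2748 lower calls, and over the pathway lists between 0 and 11 higher and between 0 and 30 lower. With 3 libraries, the lone library of a group is assumed to vary like the others. At an unadjusted p under 0.05 there were 2621 genes without Ctrl 1 and 3115 without Ctrl 2, against 5329 with all libraries. Without the filter 788 genes were higher and 532 lower, with 3 pathway genes higher. TPM gave 2054 higher and 583 lower, so that 77.9% of calls were higher against 57.0% in CPM. DESeq2 gave 2125 higher and 1736 lower. The cause of these differences was not tested. In TPM Akr1b10 moved to 0.014 and Mafk to 0.0021, from -0.12 and -0.14. The libraries share numbers that no source says pair them, and the differences of same-numbered libraries correlated across genes with r = 0.19; a replicate block gave 1769 higher and 1497 lower calls, with 6 of the 10 genes called.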
